A study of Mus musculus with 80 samples.

Results

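The extracellular matrix genes of mouse kidney were followed over 4 ages and both sexes on nylon filter arrays, sheets of spotted cDNA clones hybridised with radiolabelled cDNA. The members were all clones of both filter sets with exactly 1 gene symbol that names a collagen, a laminin, a nidogen, perlecan (Hspg2), fibronectin (Fn1), a fibulin, Sparc, Bgn, Dcn, Mgp, Tgfbi, a matrix metalloproteinase, a tissue inhibitor of metalloproteinases, a lysyl oxidase or Serpinh1. This rule gave 67 clones of 45 genes, out of 16896 clones of which 9663 had 1 symbol. They were split into 22 clones of 16 collagen genes, 22 clones of 12 basement membrane genes, 11 clones of 7 genes for other glycoproteins and proteoglycans, and 12 clones of 10 remodelling genes. Set A held 19 of them and set B 48. The rule uses gene symbols and no measured value.

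The kidneys came from 40 C57BL/6 mice, an inbred laboratory strain, kept on regular feed without restriction until they were killed. There were 5 males and 5 females in each of 4 age groups, of 17 to 44, 169 to 194, 476 to 499 and 704 to 743 days, and no mouse carried an engineered allele or received an agent, as far as the labels say. Each mouse was 1 sample, with 1 array of each filter set. The youngest group joined 5 mice of 17 to 21 days (2 males and 3 females) with 5 of 33 to 44 days (3 males and 2 females), so age and sex were not balanced within it. Values are scores with mean 0 and SD 1 on every array, and all differences below are in array SDs. They are not folds, because the scale before this transformation is not given in the sources used here. Scores of different clones were set against each other only as percentiles of mean score within a filter set.

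The extracellular matrix is the network of secreted proteins around and beneath cells. Fibrillar collagens form the interstitial fibres made mainly by fibroblasts, whereas type IV collagen, laminins, nidogens and perlecan assemble into the sheets on which tubule, endothelial and glomerular cells rest. Metalloproteinases cut matrix proteins, their tissue inhibitors block them, lysyl oxidases cross-link collagen, and Serpinh1 is the chaperone that folds procollagen in the endoplasmic reticulum. Collagen production is high in growing organs, and collagen build-up in the interstitium is the hallmark of kidney fibrosis.

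No matrix clone passed the test at any age step, along the age slope, between 17 to 21 and 33 to 44 days, between males and females, or in how the sexes differed over the ages. With limma and Benjamini-Hochberg adjustment over all 16896 clones, 0 of 67 were called in each of the 8 comparisons at an adjusted p under 0.05, and ordinary least squares also called 0 in each. Of all clones, 0% were called in 7 of the 8 comparisons and 0.107% between the sexes, so a count of 0 does not set the matrix apart. The leading candidate was the clone of Col6a2, a chain of type VI collagen, which was higher in males by 0.172 ± 0.0532 array SDs (difference ± standard error, 20 males and 20 females, adjusted p = 0.763). Its call depended on the processing, as described below. In whole tissue, fewer cells of a type and less RNA per cell cannot be told apart.

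Neighbouring spots and repeated genes were checked first. Clones printed close together moved together. After removal of group and round means, the median Pearson's r over the 40 mice between clones at adjacent spot numbers was 0.539 in set A and 0.584 in set B. At a distance of 22 spot numbers it was 0.540 and 0.618, and at 200 spot numbers 0.0796 and 0.0146. Clones of the same gene hardly moved together. Over the 33 pairs of matrix clones that share a gene the median r was -0.0601, with a range from -0.440 to 0.744 and 17 pairs below 0, and over all 3453 such pairs on the filters it was 0.0203. These correlations describe pairs of clones that share the same 40 mice. Why clones at nearby spot numbers moved together was not tested. A local correction, added after seeing the data, subtracted from each value the median deviation of 32 clones at nearby spot numbers. It lowered r between adjacent spots to 0.131 and 0.117 and the median residual SD from 0.137 to 0.0962. The median r of the 33 pairs was then 0.0680, with 12 pairs below 0.

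**Figure D1:**
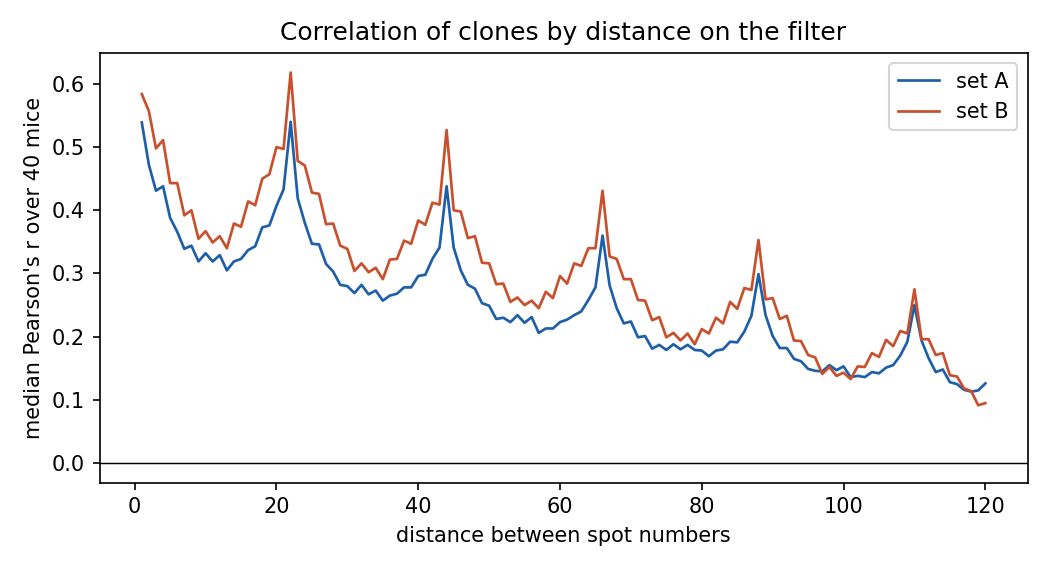
Median Pearson's r over 40 mice (vertical axis) between clones at a given distance between spot numbers (horizontal axis), for filter set A and set B, after removal of group and round means. The curves start at 0.539 and 0.584 for adjacent spots and peak again at a distance of 22 spot numbers.

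The tissue label was checked against markers. Of 13 listed proximal tubule genes 4 were measured. Lrp2 lay at the 88.5th and 93.9th percentile of mean score within its filter sets, and Miox at the 89.1st. Cubn lay at the 71.3rd and Gatm, below the middle of its set, at the 41.5th. Of 8 listed podocyte genes 3 were measured. Wt1 lay at the 52.1st and Podxl at the 15.2nd percentile, and Cdkn1c was not ranked in this check. In 5 mice, 3 males and 2 females, at least 1 of the 2 arrays correlated less with the other arrays of its set than most arrays did. Serial numbers in the titles ran in 5 rounds, and each age group had 1 male and 1 female in a round. The description field of a 714-day male names another mouse, and its sex and age fields were followed. No label says what a round was, nor that the mice came from separate litters, so p-values measure the spread between these mice.

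Fibrillar collagens form the load-bearing fibres, and Col1a1 and Col1a2 encode the chains of type I collagen. The Col1a1 clone had mean scores of 0.783 ± 0.122, 0.846 ± 0.157, 0.854 ± 0.103 and 0.838 ± 0.0896 (SD, n = 10 mice each) in the 4 age groups from youngest to oldest. Clone 9008 of Col1a2 had means of 1.32 ± 0.154, 1.31 ± 0.106, 1.29 ± 0.0527 and 1.28 ± 0.100, and clone 15060 -0.970 ± 0.172, -1.003 ± 0.183, -0.934 ± 0.0903 and -0.914 ± 0.111. The ranges of the mice overlapped between all age groups in each of these clones. For Col1a1 the difference of 704 to 743 minus 169 to 194 days was -0.00876 ± 0.0574, with a 95% interval from -0.125 to 0.107.

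Col3a1, the type III chain that accompanies type I in interstitial fibres, had 4 clones with slopes of both signs. Clone 15582 had age means of 0.489 ± 0.169, 0.560 ± 0.0924, 0.610 ± 0.0716 and 0.622 ± 0.0898, with a slope of 0.0668 ± 0.0257 per year. Clone 16795 had means of 0.984 ± 0.107, 0.935 ± 0.128, 0.951 ± 0.0892 and 0.824 ± 0.272, with a slope of -0.0714 ± 0.0353. One slope was above and the other below 0, each at an unadjusted p under 0.05 and an adjusted p of 0.937. In clone 16795 the mean at 704 to 743 days included 1 female at 0.135, while the other 9 mice lay between 0.693 and 1.11. That female is among the mice with outlying arrays, and without those mice the slopes of clones 15582 and 16795 were 0.0334 and -0.0498. Clone 10132 had age means of 0.452 ± 0.251, 0.389 ± 0.108, 0.391 ± 0.151 and 0.436 ± 0.0904, and clone 12657 1.02 ± 0.152, 1.06 ± 0.201, 1.10 ± 0.211 and 0.982 ± 0.286. Signs of the slope were the same in all clones for 5 of the 14 genes with several clones, and Col3a1 was not among them.

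Type V collagen regulates fibre diameter. Its Col5a3 clone had mean scores of 1.501 ± 0.181, 1.66 ± 0.170, 1.69 ± 0.0917 and 1.61 ± 0.124 over the ages. At 17 to 44 days the mice ran from 1.19 to 1.67 with a median of 1.56, and at 169 to 194 days from 1.41 to 1.90 with a median of 1.66, so the groups overlapped. The difference was 0.158 ± 0.0699 (adjusted p = 0.933), and it was above 0 in 8 of 10 couples, a couple being 2 mice of the same sex and round. Clones at the spot numbers before and after it differed by 0.112 and 0.112 in the same comparison, and their part in the result was not tested. After the local correction the Col5a3 difference was 0.165. Col5a1 differed by -0.00740 ± 0.0693 and 0.0431 ± 0.0884 in its 2 clones, and Col5a2 by 0.0226 ± 0.0897.

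Type VI collagen forms beaded filaments close to cell surfaces, and had clones of Col6a1, Col6a2, Col6a4 and Col6a5. Clone 5495 of Col6a4 had age means of -0.171 ± 0.139, -0.357 ± 0.160, -0.243 ± 0.191 and -0.169 ± 0.169. Mice of 169 to 194 days ran from -0.685 to -0.153 with a median of -0.363, lower than the medians of -0.133 at 17 to 44 days and -0.171 at 704 to 743 days, and the ranges overlapped. The difference of 169 to 194 minus 17 to 44 days was -0.186 ± 0.0735, below 0 in 9 of 10 couples, and that of 704 to 743 minus 169 to 194 days 0.188 ± 0.0735, above 0 in 9 of 10 couples. Both comparisons use the same 169 to 194 day mice, and neither passed (adjusted p = 0.933 and 0.9997). After the local correction the differences were -0.105 and 0.0753, and the neighbouring spots had differed in the same directions, by -0.0946 and -0.145 in the first comparison and 0.104 and 0.188 in the second. The second Col6a4 clone (15610) differed by 0.0418 ± 0.0673 and 0.0361 ± 0.0673.

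The Col6a1 clone had age means of 0.631 ± 0.237, 0.632 ± 0.112, 0.656 ± 0.125 and 0.749 ± 0.173, and the difference of the oldest from the 169 to 194 day mice was 0.117 ± 0.0757. In Col6a5 the last step, 704 to 743 minus 476 to 499 days, was 0.104 ± 0.0627, above 0 in 9 of 10 couples. Col9a3, a chain of the cartilage-type collagen IX, had a slope of 0.0767 ± 0.0356 per year at an unadjusted p under 0.05 (adjusted p = 0.937). Its age means were -0.371 ± 0.148, -0.316 ± 0.125, -0.305 ± 0.0957 and -0.205 ± 0.257. One female of 704 to 743 days stood at 0.417 and the other 9 of that age between -0.488 and -0.0555. This was the same mouse as in Col3a1 clone 16795, and without the mice with outlying arrays the slope was 0.0432. With array weights the Col9a3 difference of the oldest from the 169 to 194 day mice was -0.00137, against 0.111 ± 0.0714 without them. Before the local correction, the remaining collagens (Col2a1, Col8a2, Col12a1, Col14a1 and Col22a1) had unadjusted p above 0.05 in each comparison. After it, the slope of Col2a1 was -0.0586 per year at an unadjusted p under 0.05 (adjusted p = 0.596). Col14a1 then differed by -0.0819 for 169 to 194 minus 17 to 44 days, also at an unadjusted p under 0.05 (adjusted p = 0.699).

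Type IV collagen is the scaffold of every basement membrane, and its Col4a1 and Col4a2 chains assemble with each other. Col4a1 clone 15318 had age means of 1.54 ± 0.116, 1.59 ± 0.108, 1.53 ± 0.193 and 1.60 ± 0.0689 and clone 14494 0.947 ± 0.272, 1.04 ± 0.195, 0.999 ± 0.268 and 1.08 ± 0.256. The Col4a2 clone had means of -0.00848 ± 0.233, -0.0400 ± 0.124, -0.0667 ± 0.0868 and -0.0658 ± 0.0855, and that of Col4a5, a chain of the mature glomerular membrane, -0.916 ± 0.188, -0.840 ± 0.186, -0.819 ± 0.223 and -0.803 ± 0.271. The oldest minus 169 to 194 day difference was 0.00540 ± 0.0594 and 0.0428 ± 0.105 for Col4a1 and -0.0259 ± 0.0680 for Col4a2. Intervals for these 3 clones ran from -0.115 to 0.126, -0.170 to 0.256 and -0.163 to 0.112. Hspg2, the heparan sulphate proteoglycan perlecan, had age means of 0.344 ± 0.221, 0.432 ± 0.299, 0.412 ± 0.312 and 0.484 ± 0.261.

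Col18a1 encodes the basement membrane collagen from which endostatin is cut. Its 3 clones had age means of 1.28 ± 0.0980, 1.28 ± 0.155, 1.27 ± 0.0960 and 1.20 ± 0.170 (clone 10399), 0.328 ± 0.223, 0.345 ± 0.236, 0.314 ± 0.240 and 0.264 ± 0.139 (12594) and -0.0287 ± 0.183, 0.156 ± 0.256, 0.189 ± 0.158 and 0.0343 ± 0.244 (13668). Against 169 to 194 days the oldest mice differed by -0.0780 ± 0.0649, -0.0812 ± 0.0942 and -0.121 ± 0.0956. All 3 were lower, none passed, and these 3 spots share mice and filter. The last step for clone 13668 was -0.155 ± 0.0956, below 0 in 9 of 10 couples (adjusted p = 0.9997).

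Laminins are trimers of an alpha, a beta and a gamma chain. Lamc1, the usual gamma chain, had 3 clones with age means of 0.226 ± 0.184, 0.0837 ± 0.175, 0.271 ± 0.181 and 0.184 ± 0.167 (clone 6523), 0.629 ± 0.110, 0.659 ± 0.106, 0.655 ± 0.113 and 0.571 ± 0.135 (8807) and 0.703 ± 0.126, 0.673 ± 0.128, 0.724 ± 0.118 and 0.659 ± 0.115 (9951). Only the first of these reached an unadjusted p under 0.05, with 0.187 ± 0.0778 for 476 to 499 minus 169 to 194 days, 8 of 10 couples above 0 and an adjusted p of 0.9998. After the local correction it was 0.0908, and the spots before and after it differed by 0.0969 and 0.0484, whose part in the result was not tested. Clones 8807 and 9951 differed by -0.00390 ± 0.0582 and 0.0507 ± 0.0569. The 2 clones of Lama5, the alpha chain of mature tubule and glomerular membranes, had opposite signs: oldest minus 169 to 194 days was -0.213 ± 0.108 in clone 838 and 0.228 ± 0.122 in clone 3697. Neither passed (adjusted p = 0.9997 for both). In clone 3697 1 male of 704 to 743 days stood at 2.57 and the other 9 of that age between 1.03 and 1.69, and without that male the difference was 0.0992. Lamb1, a beta chain, had 4 clones, whose differences in that comparison were -0.140 ± 0.0846, 0.0225 ± 0.0771, 0.0185 ± 0.0548 and 0.0365 ± 0.0824. Nidogens link the laminin and collagen IV networks, and Nid1 differed by -0.103 ± 0.0967 and -0.0350 ± 0.0830 and Nid2 by -0.0717 ± 0.0866. The alpha chains Lama1 and Lama3 differed by -0.140 ± 0.0949 and 0.0706 ± 0.0747. Before the local correction both missed the threshold at each age step (unadjusted p above 0.05). After it, Lama1 differed by -0.151 for 476 to 499 minus 169 to 194 days, at an unadjusted p under 0.05 (adjusted p = 0.9999).

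Fibronectin, Sparc, fibulin and the small proteoglycans organise fibres and bind growth factors. The Fn1 clone had age means of 1.37 ± 0.186, 1.41 ± 0.238, 1.43 ± 0.265 and 1.42 ± 0.209, and Fbln2 1.04 ± 0.155, 1.06 ± 0.116, 1.14 ± 0.103 and 1.06 ± 0.254. Bgn and Dcn encode the small leucine-rich proteoglycans biglycan and decorin. The age means of Bgn were 0.648 ± 0.129, 0.627 ± 0.0980, 0.563 ± 0.0866 and 0.634 ± 0.170, and those of Dcn -0.563 ± 0.169, -0.513 ± 0.216, -0.526 ± 0.220 and -0.435 ± 0.186 (clone 8966) and -0.602 ± 0.104, -0.601 ± 0.133, -0.547 ± 0.116 and -0.558 ± 0.137 (15525). Mgp, an inhibitor of calcification, had 0.0374 ± 0.180, 0.0663 ± 0.0722, 0.0653 ± 0.126 and 0.151 ± 0.159, and Tgfbi, a secreted adhesion protein, 0.604 ± 0.166, 0.648 ± 0.111, 0.656 ± 0.0718 and 0.565 ± 0.150. Oldest minus 169 to 194 days was 0.00644 ± 0.0978 for Fn1, 0.00726 ± 0.0584 for Bgn, 0.0784 ± 0.0904 and 0.0434 ± 0.0568 for Dcn, 0.0845 ± 0.0634 for Mgp and -0.0837 ± 0.0604 for Tgfbi. All of these had an adjusted p of 0.9997.

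Sparc, a collagen-binding matricellular protein made by growing tissue, had 4 clones. Their age means were 0.472 ± 0.325, 0.612 ± 0.275, 0.579 ± 0.186 and 0.600 ± 0.229 (clone 2977), -0.421 ± 0.142, -0.410 ± 0.242, -0.455 ± 0.140 and -0.376 ± 0.167 (4342), 0.565 ± 0.235, 0.546 ± 0.134, 0.678 ± 0.197 and 0.660 ± 0.113 (6518) and 1.04 ± 0.202, 0.965 ± 0.0945, 0.955 ± 0.116 and 1.02 ± 0.227 (14923). The growth step, 169 to 194 minus 17 to 44 days, was 0.140 ± 0.114, 0.0113 ± 0.0774, -0.0195 ± 0.0774 and -0.0740 ± 0.0732. The signs differed between clones, and without the 17 to 21 day mice that of clone 14923 turned to 0.0551.

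Among remodelling genes, Serpinh1 had age means of 0.769 ± 0.152, 0.836 ± 0.147, 0.871 ± 0.122 and 0.812 ± 0.142 and a growth step of 0.0670 ± 0.0655. Mmp2, a gelatinase, had means of -0.533 ± 0.187, -0.438 ± 0.341, -0.458 ± 0.399 and -0.539 ± 0.281, the widest spreads between mice being those of 169 to 194 and 476 to 499 days. Mmp7, the tubular metalloproteinase matrilysin, had means of -1.05 ± 0.114, -1.14 ± 0.104, -1.22 ± 0.186 and -1.16 ± 0.0718 and a slope of -0.0589 ± 0.0294 per year. Mmp11 and the cross-linking enzyme Loxl3 had last steps of 0.154 ± 0.0843 and 0.156 ± 0.0869, above 0 in 7 and 8 of 10 couples. Loxl2, of the same enzyme family as Loxl3, had a last step of 0.0882 ± 0.0881. Mmp11 and Loxl3 are dim clones, at the 12.3rd and 5.1st percentile of their set.

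Tissue inhibitors of metalloproteinases were represented by Timp2, Timp3 and Timp4. The 2 Timp2 clones had age means of -1.48 ± 0.153, -1.40 ± 0.239, -1.56 ± 0.177 and -1.48 ± 0.165 (clone 8734) and -1.25 ± 0.213, -1.15 ± 0.129, -1.14 ± 0.173 and -1.11 ± 0.104 (9345). Timp3, an inhibitor that stays bound to matrix, had means of 0.177 ± 0.222, 0.210 ± 0.173, 0.197 ± 0.106 and 0.0755 ± 0.0792 in clone 5288 and 0.689 ± 0.160, 0.628 ± 0.112, 0.606 ± 0.119 and 0.617 ± 0.104 in clone 9026. In clone 5288 the last step was -0.121 ± 0.0678, below 0 in 9 of 10 couples (adjusted p = 0.9997), and in clone 9026 it was 0.0104 ± 0.0594. Timp4 had means of 0.226 ± 0.208, 0.222 ± 0.154, 0.311 ± 0.138 and 0.232 ± 0.272.

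Counts of low p-values in the matrix were read against those of all clones. For 169 to 194 minus 17 to 44 days, 2 of 67 (Col5a3 and Col6a4) had an unadjusted p under 0.05, where the share of all clones was 5.08% and the share called after adjustment 0%. For 476 to 499 minus 169 to 194 days it was 1 (Lamc1) against 1.23%, for the last step 0 against 2.35%, and for the oldest against 169 to 194 days 1 (Col6a4) against 2.36%. Along the slope it was 3 (2 clones of Col3a1 and Col9a3) against 5.2%. For the F test of sex by age it was 1 (Lamb1) against 3.23%. Ordinary least squares gave 2, 1, 0, 2, 3 and 1 in these 6 comparisons.

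These counts moved with the processing. Following the local correction they were 5 for the growth step (6.77% of all clones), 2 for 476 to 499 minus 169 to 194 days (1.88%), 6 for the last step (3.97%), 2 for the oldest against 169 to 194 days (3.86%), 3 for the slope (7.49%) and 2 for the F test (2.76%). The 6 of the last step, which had 0 without the correction, were Timp3 clone 5288 (-0.145), Lamc1 clone 8807 (-0.0856), Col5a1 clone 1509 (0.112), Col6a5 (0.0887), Mmp11 (0.118) and Mmp7 (0.104), each with an adjusted p of 0.9998. With the round as a block the counts were 3 (7.14%), 2 (2.02%), 2 (4.38%), 3 (4%), 5 (7.47%) and 1 (6.63%).

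Class counts and medians were set beside those of all clones. For the oldest against 169 to 194 days, 15 of 22 collagen clones were higher with a median difference of 0.0344, where 50.6% of all clones were higher with a median of 9.88e-04. In the same comparison 9 of 11 glycoprotein and proteoglycan clones were higher (median 0.0344), 10 of 22 basement membrane clones (median -0.0197) and 5 of 12 remodelling clones (median -0.00674). For the growth step the medians were -8.1e-05 for collagens, 0.0304 for the basement membrane, 0.0181 for glycoproteins and proteoglycans and 0.0394 for remodelling genes, against 0.00220 for all clones. For 476 to 499 minus 169 to 194 days, 15 of 22 collagen clones, 7 of 22 basement membrane clones and 3 of 12 remodelling clones were higher, against 52.4% of all clones, and for the last step 14, 10 and 8, against 47.5%. Slopes had medians of 0.0189, -0.0150, 0.0188 and 0.00932 per year, against 2.55e-04. These counts describe the clones, which share mice and filters, and carry no test of their own.

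How much change the data allow is set by the intervals. For the oldest against 169 to 194 days, the 95% interval lay within 0.2 array SD of 0 for 27 of 67 clones and within 0.3 for 58. For the growth step these were 31 and 58, for 476 to 499 minus 169 to 194 days 33 and 62, and for the last step 23 and 58. The widest interval, of the very dim Col12a1 clone, ran from -0.480 to 0.504 for the oldest against 169 to 194 days. The median standard error of an age step was 0.0771 for the matrix and 0.0779 for all clones. A p that misses the threshold does not show that the values were equal.

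**Figure D2:**
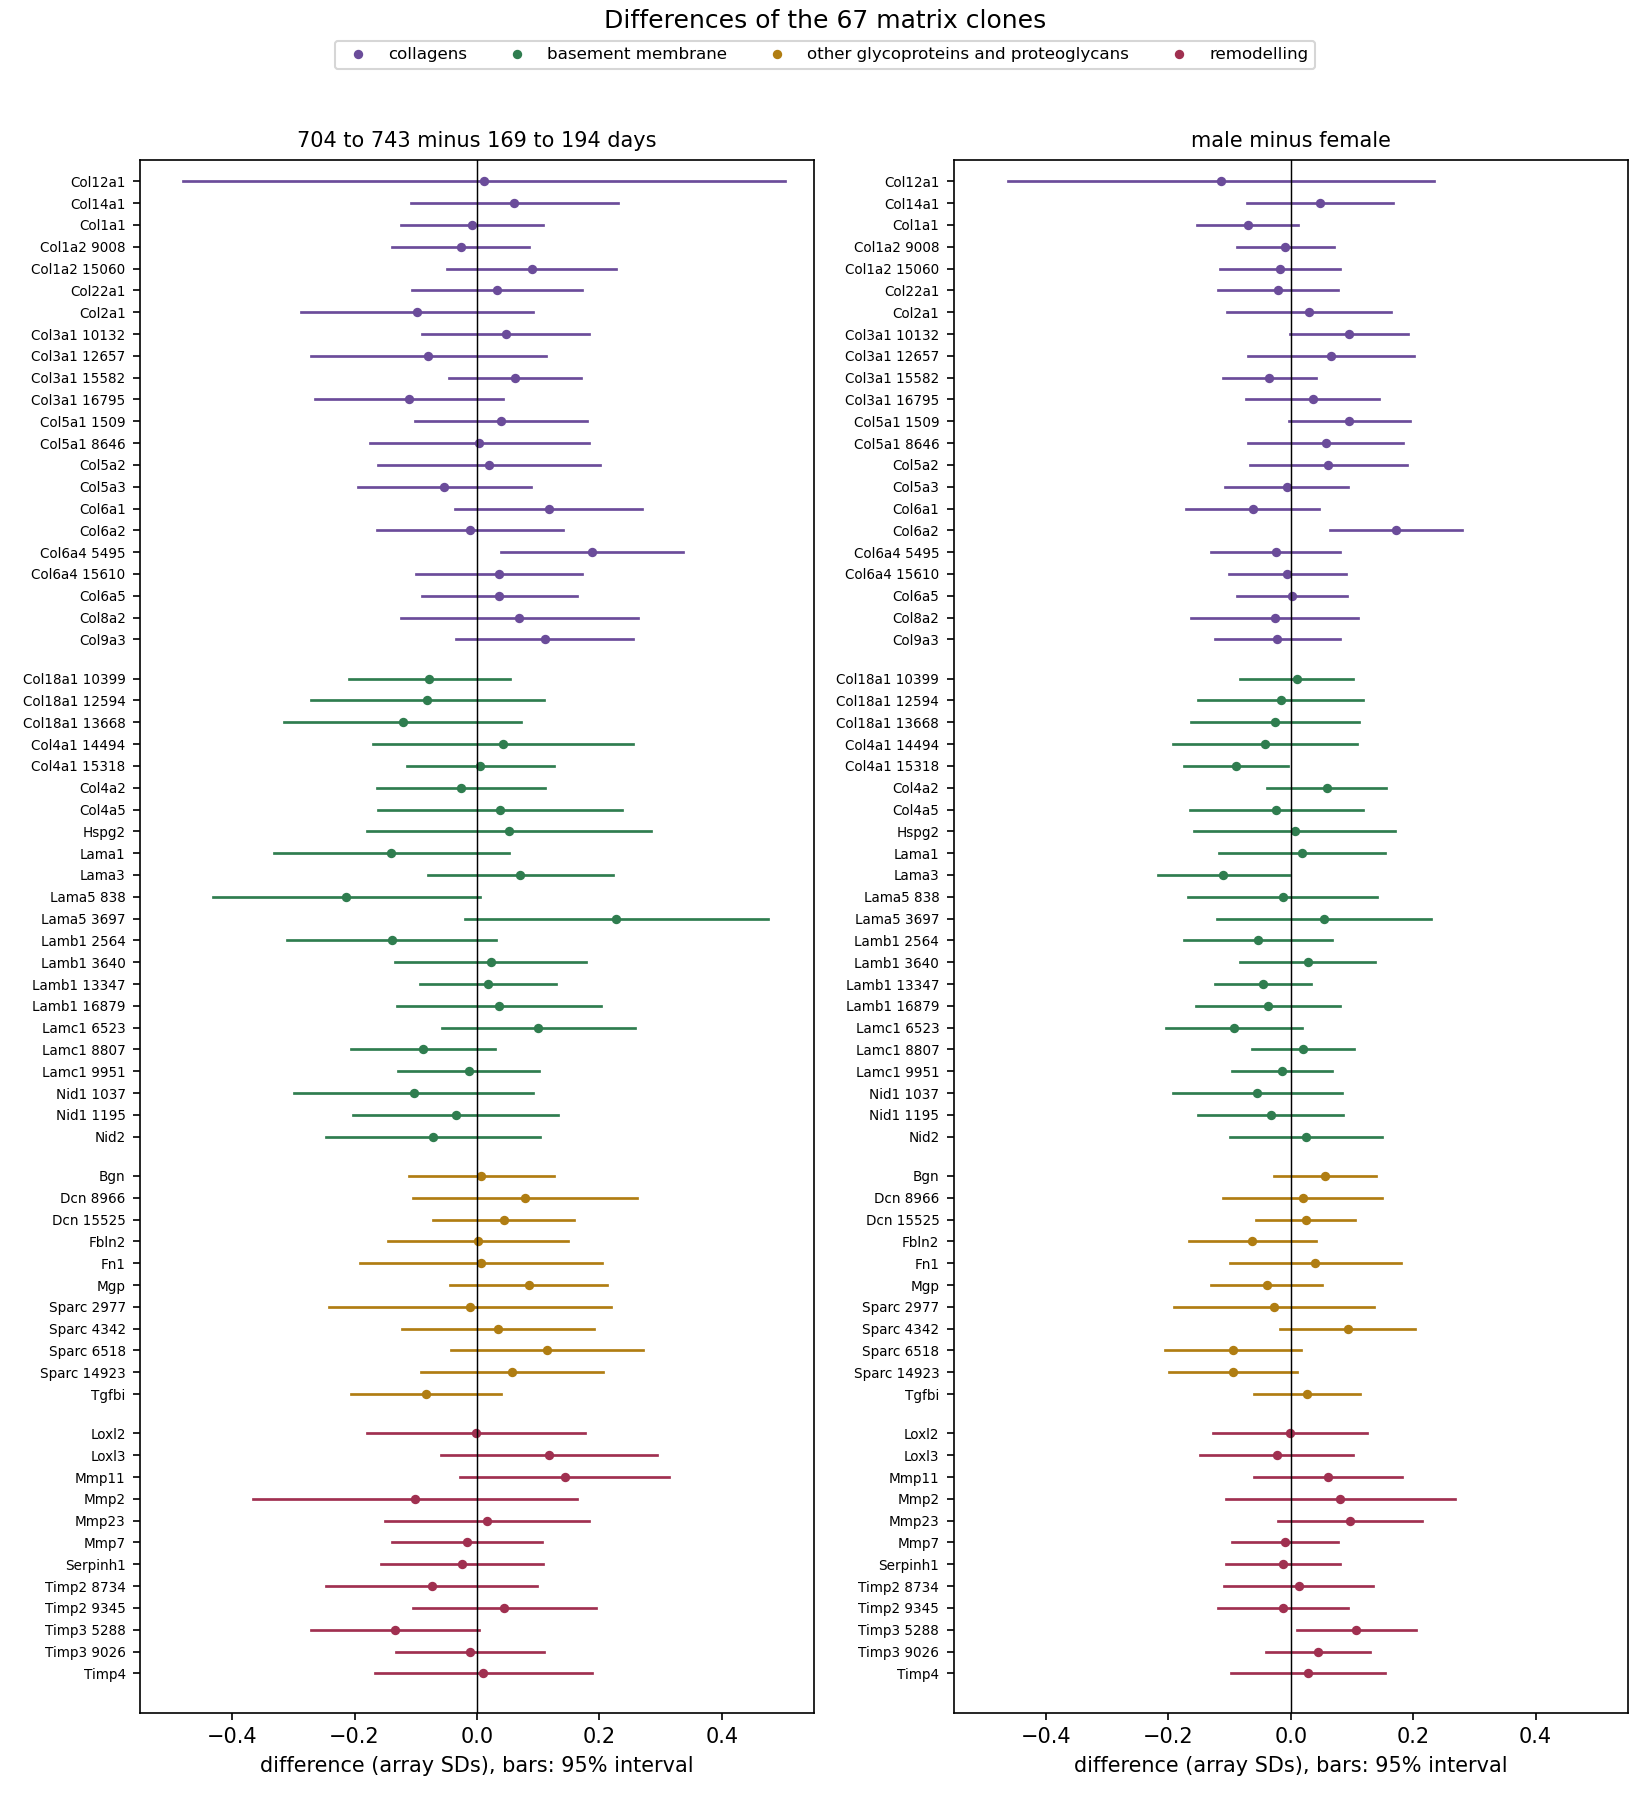
Differences of the 67 matrix clones in array SDs (points) with 95% intervals (bars), for 704 to 743 minus 169 to 194 days and for male minus female, coloured by class, with the spot number after genes that have several clones. Points lie between -0.213 and 0.228 for age and between -0.114 and 0.172 for sex, and Col6a2 has the highest sex difference.

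Clones of the same gene were compared for the direction of their differences. All clones of a gene had the same sign in 7 of 14 genes for the oldest against 169 to 194 days, in 4 for the growth step, in 5 for the slope and in 7 for sex. These were 4, 2, 5 and 4 after the local correction. Of the 14 genes 9 had 2 clones, and among all 1858 genes with several clones 44.3%, 43.4%, 44.2% and 44.6% had clones of 1 sign in these comparisons. Without the correction, Col4a1 and Dcn were among them in each of these 4 comparisons. After removal of group and round means, r between the 2 clones was -0.418 for Col4a1 and 0.245 for Dcn. Col1a2 kept 1 sign in growth and sex. Col6a4, Nid1 and Timp3 kept 1 sign in the oldest against 169 to 194 days, the slope and sex.

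**Figure D3:**
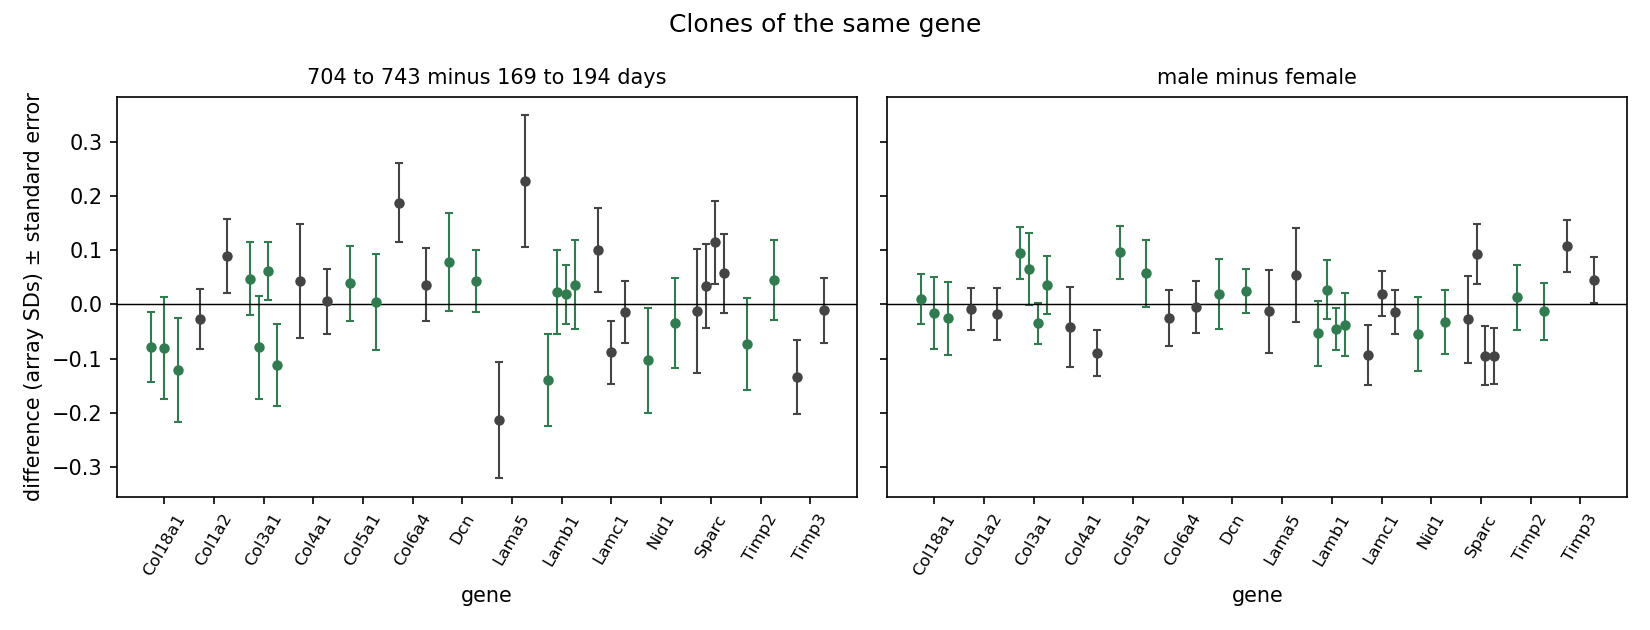
Differences in array SDs with standard errors for each clone of the 14 genes with more than 1 clone, for 704 to 743 minus 169 to 194 days and male minus female. Clones of Lama5 lie on both sides of 0 with age, at -0.213 and 0.228 (0.0992 without 1 male of 704 to 743 days), and the 3 clones of Col18a1 lie on the same side.

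Males and females differed in 18 of all clones after adjustment, 0.107%, by 0.204 to 0.722 array SDs, and in 0 of 67 matrix clones. At an unadjusted p under 0.05 there were 4 matrix clones, against 4.48% of all clones: Col6a2 and Timp3 higher in males, Lama3 and Col4a1 lower. Ordinary least squares gave 5, and the local correction and the round as a block gave 7 each, against 5.97% and 6.18%. The median difference was -0.00601 for collagens, -0.0196 for the basement membrane, 0.0193 for glycoproteins and proteoglycans and 0.0204 for remodelling genes, against -0.00117 for all clones. The local correction turned the collagen and basement membrane medians to 0.00774 and 0.00730, with 14 and 13 of 22 clones higher where 10 and 8 had been, and all clones had 0.00486. The 95% interval lay within 0.2 array SD of 0 for 56 of 67 clones and within 0.3 for 66.

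Col6a2 scores ran from -1.68 to -0.827 with a median of -1.17 in 20 males and from -1.60 to -0.941 with a median of -1.36 in 20 females. The ranges overlapped almost entirely, and the sexes lay apart by their means of -1.18 ± 0.182 and -1.35 ± 0.167 (SD). At 17 to 44 days the male mean was -1.33 ± 0.218 and the female mean -1.35 ± 0.114. At 169 to 194 days they were -1.07 ± 0.131 and -1.38 ± 0.181, with all 5 males between -1.20 and -0.912 and the females between -1.60 and -1.10. At 476 to 499 days they were -1.12 ± 0.187 and -1.38 ± 0.186, and at 704 to 743 days -1.19 ± 0.0930 and -1.28 ± 0.206. Males had the higher mean at each age, by 0.0206, 0.313, 0.267 and 0.0859, and in 16 of 20 couples of the same age group and round. The F test of whether this difference varied with age gave an F of 1.75 (adjusted p = 1).

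The overall Col6a2 difference had a 95% interval from 0.0641 to 0.279 and did not pass. After the local correction it was 0.186 ± 0.0397 (adjusted p = 0.0209), with means of -1.17 ± 0.136 in males and -1.36 ± 0.128 in females. That correction called 36 of all clones, 0.213%, and 1 of 67 matrix clones. With array weights the difference was 0.213 (adjusted p = 0.0468), with the round as a block it kept its size with an adjusted p of 0.325, and with both the local correction and the block the adjusted p was 0.00601. Over the 10 alternatives that kept the clone, the difference ran from 0.159 to 0.217 and the adjusted p from 0.00601 to 0.9998. The spots before and after it differed by -0.0164 and 0.00161 between the sexes. The clone is dim, at the 9.7th percentile of its set, and an alternative without the dimmest 25% of clones removes it. Col6a1, which encodes the partner chain of the same trimer, differed by -0.0622 ± 0.0535, in 12 of 20 couples below 0.

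Timp3 clone 5288 ran from -0.0279 to 0.619 with a median of 0.215 in males and from -0.137 to 0.342 with a median of 0.0980 in females. The ranges overlapped, and the 4 highest scores were those of males. Its difference was 0.107 ± 0.0479, above 0 in 14 of 20 couples (adjusted p = 0.982), and that of the second Timp3 clone (9026) was 0.0452 ± 0.0420. By age group it was 0.244, 0.107, 0.106 and -0.0279. Age and sex were not balanced within the youngest group, where this clone was lower at 17 to 21 days by a fitted difference of -0.293. The part of age in the 0.244 was not tested. Over 11 alternatives the sex difference over all ages ran from 0.103 to 0.132, with adjusted p from 0.0995 to 0.9998.

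**Figure D4:**
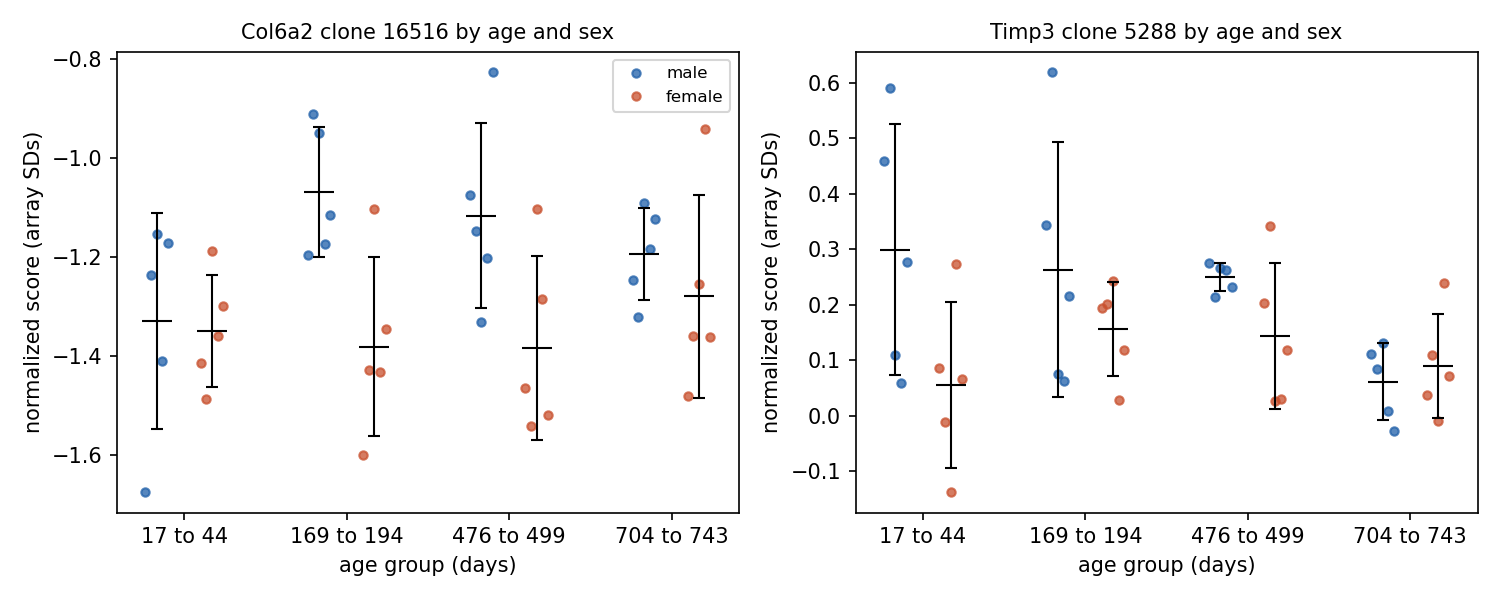
Normalized scores in array SDs (vertical axis) of Col6a2 clone 16516 and Timp3 clone 5288 in each mouse, by age group in days (horizontal axis) and sex, with group means and SDs as black bars (n = 5). Male means of Col6a2 lie above female means at each age, by 0.0206 to 0.313, and the mice of both sexes overlap.

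The sequences just upstream of these 2 genes are shown because their clones had the highest sex differences of the collagen and remodelling classes. They are the 250 bases before the annotated start from RefSeq (GRCm38.p6), at chr10:76623631-76623880 on the minus strand for Col6a2 and chr10:86300162-86300411 on the plus strand for Timp3. Capitals mark the letters of a GC box (GGGCGG or CCGCCC, searched on both strands).
Col6a2: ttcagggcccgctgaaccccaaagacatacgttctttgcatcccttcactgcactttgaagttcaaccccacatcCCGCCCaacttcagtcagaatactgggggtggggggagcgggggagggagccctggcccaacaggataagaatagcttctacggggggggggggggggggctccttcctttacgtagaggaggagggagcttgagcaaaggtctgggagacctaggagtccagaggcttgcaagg
Timp3: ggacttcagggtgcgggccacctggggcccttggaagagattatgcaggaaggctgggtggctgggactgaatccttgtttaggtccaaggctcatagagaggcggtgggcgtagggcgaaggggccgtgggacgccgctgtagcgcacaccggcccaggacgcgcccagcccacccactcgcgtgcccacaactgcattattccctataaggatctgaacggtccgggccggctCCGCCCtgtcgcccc
Each window held 1 GC box, and 32.7% of all 32851 windows of 250 bases held at least 1. Neither held the androgen receptor motif searched (AGAACA or TGTTCT, both strands), which 16.1% of all windows held. A match is a description of letters and not a binding site, and its absence says only that these letters are not in this window.

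Lower in males were Lama3 and Col4a1 clone 15318. Lama3, an epithelial laminin alpha chain, ran from -0.729 to -0.107 with a median of -0.316 in males and from -0.437 to 0.0651 with a median of -0.251 in females. The difference was -0.110 ± 0.0528 (adjusted p = 0.982), below 0 in 15 of 20 couples, and after the local correction -0.0418. Col4a1 clone 15318 ran from 1.06 to 1.68 with a median of 1.55 in males and from 1.42 to 1.76 with a median of 1.60 in females, a difference of -0.0896 ± 0.0420 (adjusted p = 0.982), and its second clone gave -0.0415 ± 0.0744. The Col4a2 clone had the opposite sign, 0.0585 ± 0.0481. Spots next to Lama3 and Col4a1 differed in the same direction, by -0.0829 and -0.0593 and by -0.0460 and -0.0275, and their part in the result was not tested.

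In the other matrix classes the leading sex differences did not pass. Col1a1 was lower in males by a difference of -0.0703 ± 0.0406, in 14 of 20 couples, and -0.00694 after the local correction. Col3a1 clone 10132 gave 0.0951 ± 0.0478, and clones 12657, 15582 and 16795 gave 0.0652 ± 0.0671, -0.0351 ± 0.0376 and 0.0359 ± 0.0536. Sparc gave -0.0949 ± 0.0517, -0.0946 ± 0.0547, 0.0930 ± 0.0547 and -0.0279 ± 0.0807 in clones 14923, 6518, 4342 and 2977, with both signs. Bgn gave 0.0563 ± 0.0413, Fn1 0.0402 ± 0.0692, Mmp23 0.0974 ± 0.0581, Mmp2 0.0810 ± 0.0926 and Serpinh1 -0.0125 ± 0.0463.

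The dim Lamb1 clone 3640 had the lowest p of the matrix in the F test of sex by age (F = 3.94, unadjusted p under 0.05, adjusted p = 1). Male means were -1.11 ± 0.218, -1.33 ± 0.146, -1.31 ± 0.0747 and -1.41 ± 0.137 from youngest to oldest, and female means -1.40 ± 0.205, -1.31 ± 0.103, -1.38 ± 0.271 and -1.18 ± 0.110. Males were higher at 17 to 44 days, by 0.288, and lower at 704 to 743 days, by a difference of -0.234. Age and sex were not balanced within the youngest group. Without the mice with outlying arrays F was 2.47.

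Within the youngest group, 5 mice of 17 to 21 days against 5 of 33 to 44 days were compared in a fit with sex as a term. No clone of 16896 passed (0%). At an unadjusted p under 0.05 there were 6 matrix clones, against 4.3% of all clones: Timp3 clone 5288 and Col18a1 clone 13668 lower at 17 to 21 days, and Sparc clone 14923, Lamc1 clone 6523, Col18a1 clone 12594 and Col6a4 clone 15610 higher. Ordinary least squares gave 4. After the local correction 3 were left, Timp3, Col18a1 clone 13668 and Col6a4, against 4.28%, and with the round as a block there were 5, against 3.82%. The young mice were not balanced by round, since both of round 3 were 17 to 21 days old and both of round 5 were 33 to 44 days old. Of the 12 remodelling clones 10 were lower at 17 to 21 days, with a median of -0.0979, where all clones had a median of 0.00659 and 52.4% higher. The medians of the other classes were 0.0275 for collagens, 0.00104 for the basement membrane and 0.0464 for glycoproteins and proteoglycans. The remodelling median was -0.0810 after the local correction, with 10 of 12 again lower, and the other 3 were -0.00221, 0.0314 and 0.00732.

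Sparc clone 14923 had scores of 1.09, 1.12, 1.18, 1.25 and 1.28 in the mice of 17 to 21 days and 0.600, 0.864, 0.962, 0.967 and 1.09 in those of 33 to 44 days. The younger mice were all above the older ones, the closest pair at 1.092 and 1.091. The fitted difference was 0.269 ± 0.0962 (adjusted p = 0.998), and over 10 alternatives it ran from 0.102 to 0.277, and was 0.118 after the local correction. The other Sparc clones gave -0.0640 ± 0.161, 0.0146 ± 0.112 and 0.199 ± 0.107. Col18a1 clone 13668 had scores of -0.396, -0.207, -0.0685, -0.0613 and -0.0558 at 17 to 21 days and -0.0275, 0.0249, 0.112, 0.134 and 0.259 at 33 to 44 days, again without overlap. Its fitted difference was -0.266 ± 0.128, but -0.0825 with the round as a block and -0.0738 with the block and the local correction. Over all ages this clone ran from -0.396 to -0.0035 in the mice of round 3 and from 0.112 to 0.504 in those of round 5, so its split in the youngest mice cannot be told apart from the round. Without the block, clones 12594 and 10399 of the same gene gave 0.264 ± 0.127 and 0.0552 ± 0.0896. Groups that did not overlap were found for these 2 of 67 matrix clones and for 0.722% of all clones.

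Timp3 clone 5288 had scores of -0.137, -0.0113, 0.0595, 0.0863 and 0.109 at 17 to 21 days and 0.0658, 0.273, 0.277, 0.459 and 0.591 at 33 to 44 days. One older mouse fell among the younger ones. The fitted difference was -0.293 ± 0.0872 (adjusted p = 0.998), -0.177 after the local correction, and the second clone gave -0.122 ± 0.0822. Lamc1 clone 6523 had 0.294, 0.317, 0.333, 0.413 and 0.423 against -0.177, 0.0800, 0.116, 0.162 and 0.304, a fitted difference of 0.243 ± 0.105 that was 0.0983 after the local correction. Its neighbouring spots differed by 0.253 and 0.133, and clones 8807 and 9951 of Lamc1 by 0.0721 ± 0.0799 and -0.0196 ± 0.0834. The Col3a1 clones gave -0.185 ± 0.0969, 0.231 ± 0.130, 0.0246 ± 0.0778 and 0.127 ± 0.105, the first of them -0.0540 without 1 male of 33 to 44 days that stood at 1.12.

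**Figure D5:**
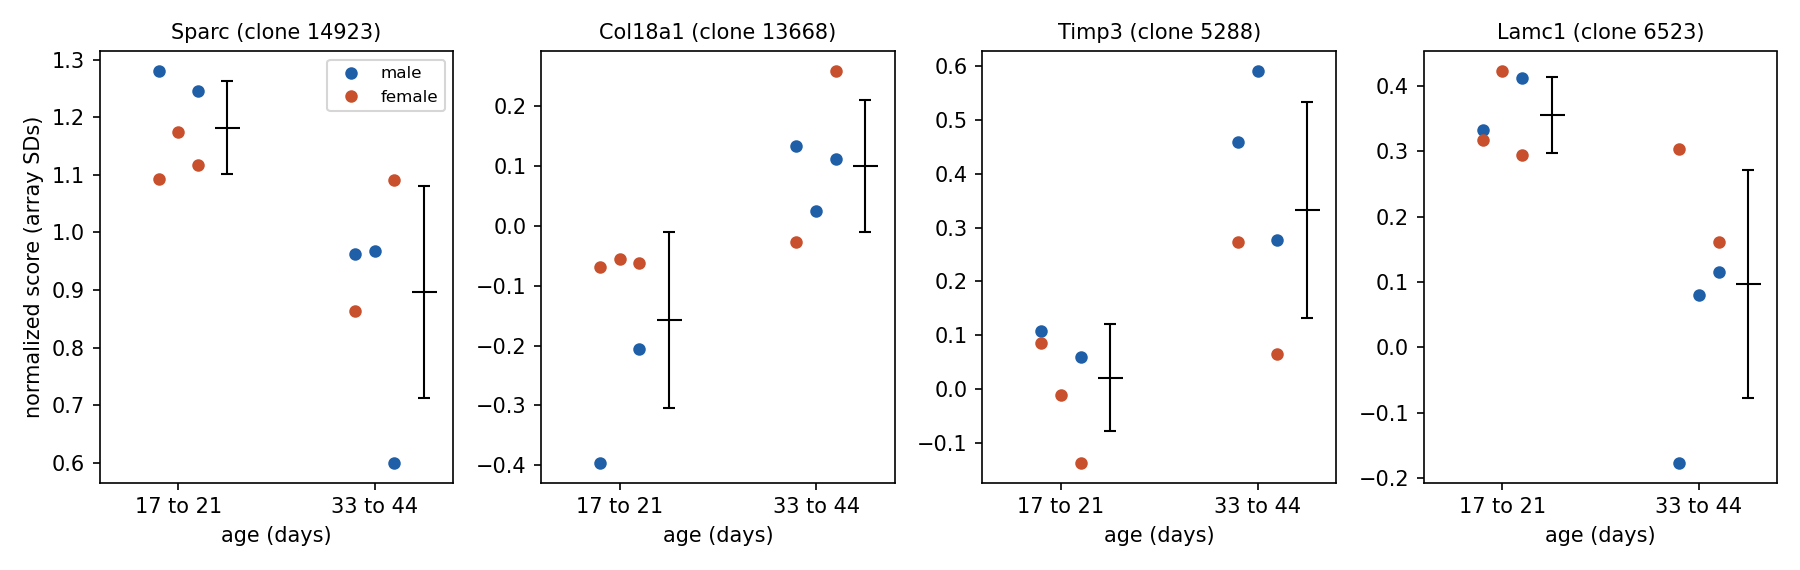
Normalized scores in array SDs (vertical axis) of 4 clones in each mouse of the youngest group, split into 17 to 21 and 33 to 44 days (horizontal axis) and coloured by sex, with means and SDs as black bars (n = 5). Sparc and Col18a1 separate without overlap (for Col18a1 the split follows the round, -0.0825 with the round as a block), and in Timp3 and Lamc1 1 older mouse falls among the younger ones.

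Genes that act on the matrix from outside the members did not pass either. Enzymes of collagen synthesis were measured for 11 of 23 listed genes (14 clones) and matrix receptors for 12 of 21 (17 clones). TGF-beta signalling, the pathway that drives matrix genes in fibrosis, was measured for 9 of 24 listed symbols (10 clones). Ccn1 and Ccn2 were also listed there as Cyr61 and Ctgf. The median TGF-beta clone lay at the 25.55th percentile of mean score. In each of these lists 0 clones were called higher and 0 lower in the 7 comparisons with a direction. Of all clones, 0% were called in these comparisons apart from sex, where the share was 0.107%. A count of 0 therefore does not set these lists apart. The collagen prolyl hydroxylase subunit P4hb differed by 0.128 ± 0.0556 for the growth step and -0.117 ± 0.0556 for the oldest against 169 to 194 days, which share the 169 to 194 day mice. The collagen-binding integrin Itga1 was higher in males by 0.162 ± 0.0509 (adjusted p = 0.802). Itga3, which binds laminin, had a growth step of -0.179 ± 0.0597.

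Cell type markers were counted in the same way. Fibroblast, pericyte and smooth muscle markers were measured for 5 of 13 listed genes, and their median difference was -0.00907 for the growth step, 0.0221 for the oldest against 169 to 194 days and 0.0153 for sex. Pdgfra, a fibroblast receptor, gave 0.172 ± 0.0824 for sex and Pdgfrb, found on pericytes, -0.0653 ± 0.0363. Cycling cell markers (20 clones) had medians of 0.0110, 0.0225 and 0.00748 in these 3 comparisons, and macrophage markers (4 clones) 0.0398, 0.0656 and 0.0192. No marker clone of fibroblasts, podocytes, endothelium, proximal tubule, macrophages, adipose tissue or cycling cells was called in any direction (0 clones). The share of all clones called was 0% apart from sex (0.107%), so this count does not set the markers apart.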

How the data were processed

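Total kidney RNA of 40 mice was labelled with 33P and hybridised to 2 filter sets of 8448 clones each, per the labels' protocols. The authors deposited 1 score per clone and array, with an array mean of 0 and SD of 1. How images were read, any background correction and the scale before scoring: not given in the sources used here. Precision is limited by the number of arrays. Scores were quantile normalized within each set and fitted with limma 3.58.1 (R 4.3.3, lmFit and eBayes), with 8 sex and age means, with an age slope per year (365 days) and sex, or with the youngest group split and sex. P-values were adjusted by Benjamini-Hochberg over 16896 clones and called at 0.05. Fits were tested on simulated data. The F test of sex by age has no direction.

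Serial numbers in the titles gave 5 rounds, with 1 mouse of each sex and age group in each; no label says that a round marks a shared day or litter, so the round entered as a block only as an alternative. Members and lists were chosen with earlier results of these data known. Named were clones called in any comparison, of which there were none without array weights or the local correction. Also named were the 2 clones of each class with the smallest p in each direction per comparison. Named whatever their values were all clones of Col1a1, Col1a2, Col3a1, Col4a1, Col4a2, Col18a1, Lamb1, Lamc1, Nid1, Hspg2, Fn1, Sparc, Bgn, Dcn, Mgp, Tgfbi, Serpinh1, Timp2, Timp3 and Mmp2. Timp1, Mmp14, Lox and Fbn1 were on the same list and were not analysed here. Alternatives were the scores as deposited, median scaling, the round block, array weights, no dim clones, no outlying mice, no mice of 17 to 21 days, adjustment within sets, ordinary least squares, each mouse left out in turn and, for class medians only, 1 clone per gene and all collagens together. The local correction, alone or with the block, was chosen after seeing the data. Gene symbols came from the platform annotation, and all 67 members matched RefSeq by symbol.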

Additional observations from a re-analysis of the deposited data

Results flagged for a closer look

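In 6 of 60 tests of single mice within an age group of 10, the highest or lowest mouse stood apart from the others by more than Dixon's 95% critical value. The tests covered 4 age groups in the 15 clones with an unadjusted p under 0.05 in any comparison. These clones were picked from the same data and share mice and filters. The count of 6 therefore cannot be read against the 1 in 20 of independent tests. Col3a1 clone 16795 was low at 0.135 in female 4 of 704 to 743 days and at 0.748 in male 5 of 17 to 44 days. The same female was high at 0.417 in Col9a3 clone 13410. Male 1 of 476 to 499 days was low at 1.06 in Col4a1 clone 15318 and high at 0.922 in Col18a1 clone 12594. Col6a4 clone 5495 was low at -0.527 in male 5 of 704 to 743 days, where the nearest mouse had -0.248. The female and the male of 17 to 44 days were among the 5 mice with outlying arrays.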

How the results depend on the processing

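Matrix clones called stayed at 0 in each comparison under the alternatives that refit the clones and in the 40 fits that left out 1 mouse each, apart from sex: there 1 clone, Col6a2, was called with array weights, with the local correction and with that correction and the round as a block. With the round as a block alone, 0 matrix clones were called, and the adjusted p of Col6a2 was 0.325. Of all clones, sex calls (18) were 11 without the mice of 17 to 21 days, 36 with the local correction, 57 with it and the block, and 16 to 20 with 1 mouse left out. Slope calls (0) were 2 with the block, array weights, the local correction, or the local correction and the block, 1 with adjustment within sets or ordinary least squares, and 0 to 1 with 1 mouse left out. The growth step had 1 call without the mice of 17 to 21 days. The step from 476 to 499 to 704 to 743 days had 1 with the block, array weights, the local correction, or both corrections, and the oldest against 169 to 194 days 1 with array weights or the local correction and 3 with the local correction and the block.

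Signs of small differences turned in some settings, and the cause was not tested. Without the mice of 17 to 21 days, the growth step was -0.0163 for Lama1, 0.0551 for Sparc clone 14923 and -0.0220 for Timp2 clone 9345, and the sex difference of Serpinh1 was 0.00649. With array weights, the growth step was 0.0194 for Bgn and -0.0145 for Tgfbi, the last step 0.0126 for Fbln2, the oldest against 169 to 194 days -0.00137 for Col9a3 and 0.0138 for Sparc clone 2977, and the young split 0.0365 for Bgn. Without mice with outlying arrays, Bgn had 0.0132 and Tgfbi -0.0132 for the growth step, Fbln2 0.00942 for the last step, Loxl3 0.00497 for sex and Bgn 0.0641 for the young split. The young split also turned with the local correction, to 0.00878 for Col4a2 and 0.00732 for Bgn, with the block to 0.0395 for Dcn clone 8966, and with both to 0.0294 for Bgn and 0.00796 for Dcn. With 1 mouse left out, ranges crossed 0 for Fbln2 (last step, -0.0992 to 0.00942), Lama5 clone 3697 (sex, -0.00955 to 0.0867), Loxl3 (sex, -0.0490 to 1.58e-04), Serpinh1 (sex, -0.0343 to 0.00549), Sparc clone 2977 (oldest against 169 to 194 days, -0.0653 to 0.0687) and Sparc clone 4342 (476 to 499 minus 169 to 194 days, -0.0797 to 0.0132). Class medians with 1 clone per gene changed sign for the basement membrane in the young split (-0.0162) and for remodelling genes in the oldest against 169 to 194 days (0.00398), and that of glycoproteins and proteoglycans in the last step was 0.0679. Joining all collagens in 1 class changed the sign of the collagen median in the growth step alone (0.0176). Signal over background is unknown, and 17 members lay in the dimmest 25% of their set.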
